A study of Homo sapiens with 4 samples.

Results

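The genes described here are the transcription factor NRF2, its inhibitor KEAP1 and 7 of the antioxidant genes that NRF2 switches on. The set was NFE2L2 (the gene for NRF2), KEAP1, NQO1, HMOX1, GCLC, GCLM, TXNRD1, SRXN1 and OSGIN1, chosen by gene symbol. All 9 of these 9 genes were measured, among 15870 named genes on the arrays. Each had 1 probe set (a group of probes summarised into 1 value), so no choice between probe sets was needed.

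The cells were MDA-MB-231, a human breast cancer line in long use, grown in L-15 medium with serum. Their total RNA was hybridised to 4 Affymetrix arrays, 1 per sample. In 2 samples the cells carried shDROSHA, a short hairpin RNA against DROSHA, and in 2 they carried shNC and served as the control, which the series' design text calls mock-transfected. No further treatment was given to either group. The titles call the replicates biological but do not say whether separate cultures or clones were used, so p-values measure only the spread between these samples. DROSHA is the nuclear ribonuclease that starts the processing of most microRNAs, and the comparison asks which mRNAs change in level when it is depleted.

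Under resting conditions KEAP1, an adaptor of a CUL3 ubiquitin ligase, binds NRF2 and directs its destruction. Oxidants and electrophiles modify cysteines of KEAP1, NRF2 then accumulates in the nucleus, pairs with small MAF proteins and binds antioxidant response elements near its target genes. The pathway is controlled largely at the protein level, so the mRNA of NFE2L2 alone does not report its activity. Its targets make glutathione, reduce thioredoxin, detoxify quinones and break down haem.

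The antioxidant response element has the core TGACNNNGC, and the promoter matches are shown here to let the members' changes be read beside the element through which NRF2 acts. Promoter windows of 300 bases, from 250 before to 50 after each start, were taken from RefSeq (GRCh38.p14). They were found for 8 of the 9 genes, in 11 windows because some genes have several starts, and HMOX1 had none. The core was searched on both strands and was present in 4 of the 11 windows, against 13.3% of all 35116 windows and 13.8% of the 22199 windows of protein-coding genes. These were windows of GCLM, KEAP1 and TXNRD1. None of the 6 matches overlapped the AP-1 motif TGANTCA. Each is given below 5′ to 3′ on the strand that reads TGACNNNGC, with the core in capitals.
GCLM, chr1:93909446-93909474, the gene on the minus strand and the match on the opposite strand: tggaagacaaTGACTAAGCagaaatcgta
KEAP1, chr19:10502784-10502812, the gene on the minus strand and the match on the opposite strand: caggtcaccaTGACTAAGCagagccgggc
KEAP1, chr19:10502807-10502835, the gene on the minus strand and the match on the same strand: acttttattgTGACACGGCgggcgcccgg
TXNRD1, chr12:104215670-104215698, the gene on the plus strand and the match on the same strand: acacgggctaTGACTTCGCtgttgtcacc
TXNRD1, chr12:104215761-104215789, the gene on the plus strand and the match on the opposite strand: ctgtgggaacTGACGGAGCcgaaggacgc
TXNRD1, chr12:104286920-104286948, the gene on the plus strand and the match on the opposite strand: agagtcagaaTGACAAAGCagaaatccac

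GCLM and KEAP1 held the same 9 letters, TGACTAAGC, at 25 and 22 bases upstream of a start. The matches of TXNRD1 lay 90 bases upstream of its first start, across that start, and 93 bases upstream of another. No match in the other windows says only that these letters are not in those 300 bases, and well-known elements of this pathway lie farther from the start. A match is a description of sequence and was not tied to binding here.

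DROSHA mRNA, which checks the labels, had log2 signals of 8.71 and 8.74 with shDROSHA against 9.66 and 9.76 with shNC, 1.98-fold lower. VIM, CD44 and EGFR, transcripts known to be high in this line, had log2 signals of 8.89 to 11.88. Of the transcripts listed as low, ESR1, EPCAM and KRT8 were measured, and KRT8 lay high, at a mean of 11.50. Of 15 markers of other cell types 12 were measured and 0 changed. Their summed linear signal was 1480 to 1516 in shDROSHA and 1340 to 1365 in shNC, and its part in the results was not tested.

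In the comparison of shDROSHA with shNC, KEAP1 rose and 8 of the 9 genes did not pass the test. The test was limma with a prior variance that follows signal level (the trended fit), at a Benjamini-Hochberg adjusted p of 0.05 over all 18603 probe sets. Every adjusted p below comes from it unless another fit is named. It called 6.41% of all probe sets and 8.92% of those in the same of 5 equal bins of signal as KEAP1, so 1 of 9 is near the background and is no result about the set. Of the 9 genes 4 were higher and 5 lower, and their median log2 difference was -0.01, against 0.0009 over all probe sets. With 1 constant prior variance for all probe sets (the constant fit), 0 of the 9 genes and 0.00538% of all probe sets were called. At an unadjusted p under 0.05 limma's constant fit had 1 of the 9, against 14.9% of all probe sets.

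KEAP1, the substrate adaptor that marks NRF2 for destruction, had log2 signals of 8.34 and 8.24 with shDROSHA and 7.96 and 7.83 with shNC. Both shDROSHA arrays lay above both controls. The mean was 8.29 ± 0.075 against 7.89 ± 0.097 (SD, n = 2 each), a difference of 0.39 on the log2 scale (SE 0.0995, 95% interval 0.18 to 0.61) or 1.31-fold. The adjusted p was 0.03 in the trended limma fit and 0.218 in the constant limma fit. The direction was the same without any 1 of the 4 arrays, at differences of 0.32 to 0.46, but the call held in 1 of those 4 fits. Leaving out shDROSHA replicate 1 gave a limma adjusted p of 0.0581, leaving out shNC replicate 1 gave 0.0585, and leaving out shNC replicate 2 gave 0.187. The call held at 0.00862 (limma adjusted p) when shDROSHA replicate 2 was left out. For a single gene in 2 against 2 arrays the smallest two-sided p of an exact permutation test is 0.333, so the call rests on spread pooled across probe sets.

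NFE2L2, which encodes NRF2 itself, had log2 signals of 10.07 and 10.03 in shDROSHA and 10.13 and 10.26 in shNC. The groups did not overlap, and the lower shNC array was 10.13, close to the higher shDROSHA array. The log2 difference was -0.15 (SE 0.0621, 95% interval -0.28 to -0.02), with an adjusted p of 0.199 in limma. It ranged from -0.21, without shNC replicate 1, to -0.08, when shNC replicate 2 was left out. The inhibitor and the factor it binds therefore had differences of opposite sign, of which only that of KEAP1 passed.

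**Figure D1:**
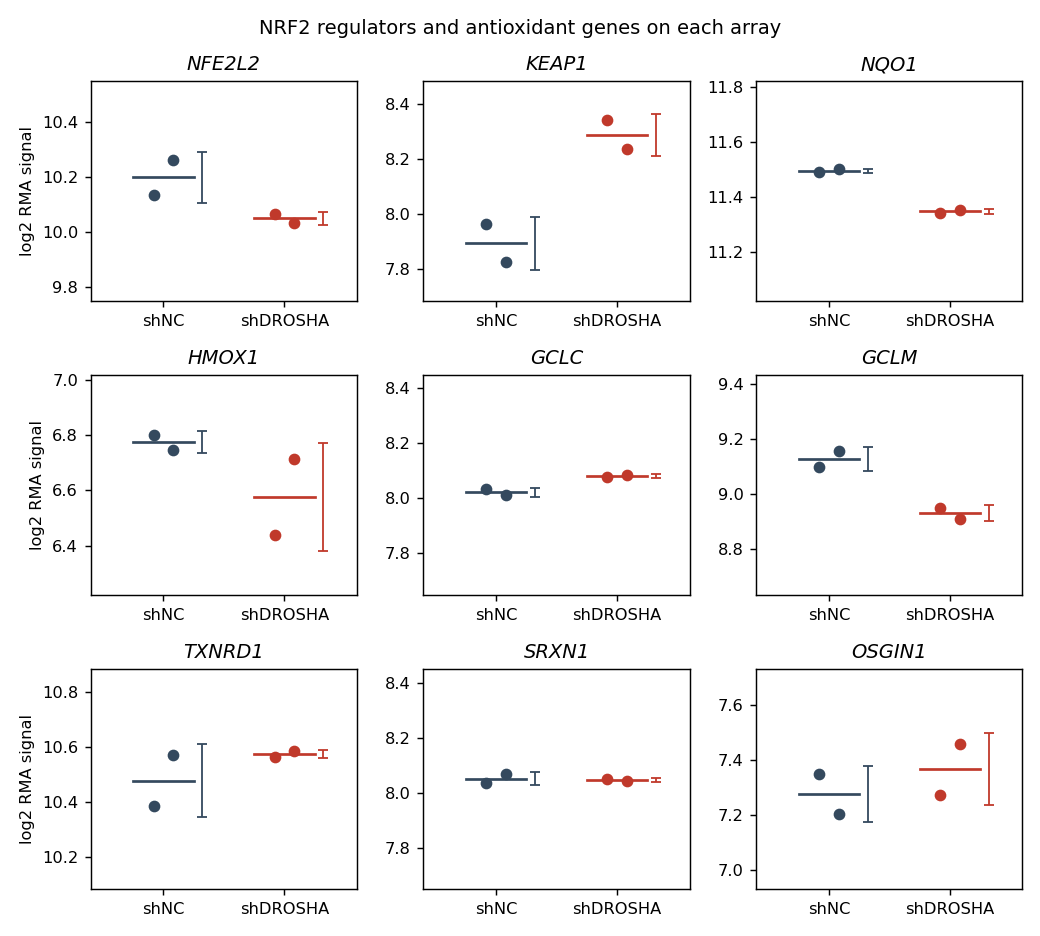
Log2 RMA signal (y axis) of the 9 genes on the 2 shNC and 2 shDROSHA arrays. Each panel spans 0.8 log2 units around its own gene, points are arrays, horizontal lines are group means and the bars beside them are ± 1 SD (n = 2). KEAP1 shows the widest gap between groups, with shDROSHA at 8.34 and 8.24 and shNC at 7.96 and 7.83.

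GCLC and GCLM encode the catalytic and the modifier subunit of glutamate-cysteine ligase, which carries out the rate-limiting step of glutathione synthesis. GCLM had log2 signals of 8.95 and 8.91 in shDROSHA and 9.10 and 9.16 in shNC. Both shDROSHA arrays were below both controls, and the log2 difference was -0.20 (SE 0.0749, 95% interval -0.36 to -0.04), with an adjusted p of 0.149 in limma. GCLC had log2 signals of 8.07 and 8.08 in shDROSHA and 8.03 and 8.01 in shNC. Its groups did not overlap either, but the log2 difference was 0.06 (SE 0.0951, 95% interval -0.15 to 0.26). The adjusted p of GCLC was 0.815 in limma. The subunits of this enzyme thus had differences of opposite sign, neither of which passed.

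TXNRD1 and SRXN1 act on thiols of proteins: thioredoxin reductase 1 keeps thioredoxin reduced with NADPH, and sulfiredoxin restores overoxidised peroxiredoxins. TXNRD1 had log2 signals of 10.56 and 10.58 in shDROSHA and 10.38 and 10.57 in shNC, so the groups overlapped. Its log2 difference was 0.10 (SE 0.063, 95% interval -0.04 to 0.23, limma adjusted p 0.458). It was 0.0024 without shNC replicate 1, and 0.19 when shNC replicate 2 was left out. SRXN1 had log2 signals of 8.05 and 8.04 in shDROSHA and 8.04 and 8.07 in shNC. All 4 arrays of SRXN1 lay close together, and the log2 difference was -0.01 (SE 0.0952, 95% interval -0.21 to 0.20, limma adjusted p 0.987). Its sign turned to 0.02 with quantile normalization again and to 0.03 with each array centred on its median.

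NQO1, a quinone reductase widely used as a readout of NRF2 activity, was close to the threshold. Its log2 signals were 11.34 and 11.35 in shDROSHA and 11.49 and 11.50 in shNC. Both pairs of replicates agreed closely and the groups did not overlap. The log2 difference was -0.15 (SE 0.0428, 95% interval -0.24 to -0.06), 1.11-fold lower, with an adjusted p of 0.0576 in limma. The adjusted p in limma was 0.0161 with quantile normalization again and 0.173 with each array centred on its median. Without 1 array the difference stayed between -0.15 and -0.14, and the adjusted p between 0.0896 and 0.231 in limma.

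HMOX1, haem oxygenase 1, breaks haem down to biliverdin, iron and carbon monoxide, and is repressed by BACH1 as well as induced by NRF2. Its log2 signals were 6.44 and 6.71 in shDROSHA and 6.80 and 6.75 in shNC. The groups did not overlap, but shDROSHA replicate 2 lay next to the controls and replicate 1 below them. The log2 difference was -0.20 (SE 0.146, 95% interval -0.51 to 0.11, limma adjusted p 0.514), and it was -0.06 without shDROSHA replicate 1 and -0.34 without shDROSHA replicate 2. HMOX1 lay in the second dimmest of the 5 bins of signal, where 1.94% of probe sets were called. Dim probe sets can compress fold changes, which was not tested here.

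OSGIN1, oxidative stress-induced growth inhibitor 1, had log2 signals of 7.27 and 7.46 in shDROSHA and 7.35 and 7.21 in shNC. The groups overlapped, and the log2 difference was 0.09 (SE 0.124, 95% interval -0.18 to 0.36, limma adjusted p 0.775). It was -0.0022 without shDROSHA replicate 2 and 0.18 without shDROSHA replicate 1.

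**Figure D2:**
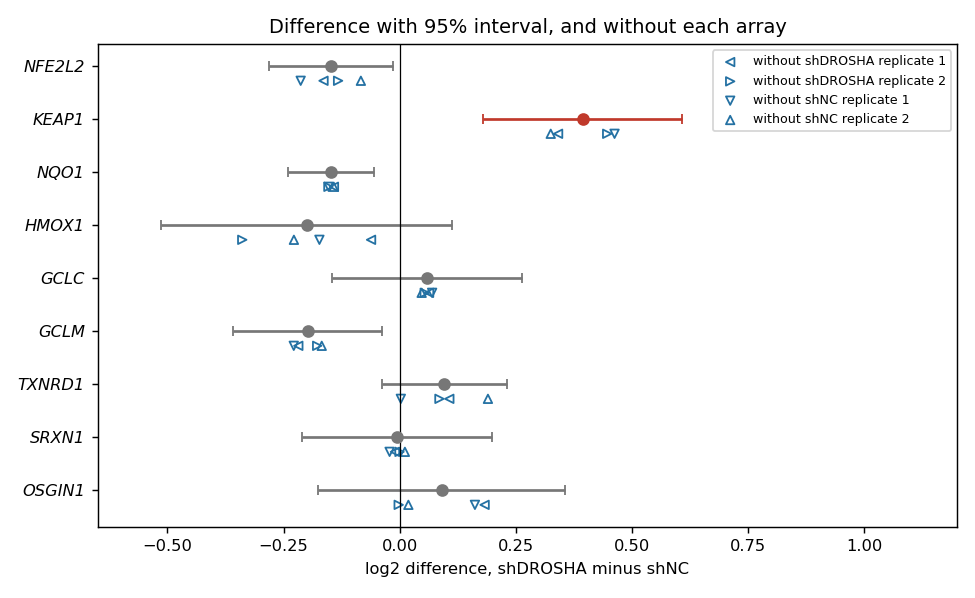
Log2 difference of shDROSHA minus shNC (x axis) for the 9 genes, with its 95% interval from the trended fit; red is past adjusted p 0.05 and grey is not. Open triangles are the same difference without 1 array each. KEAP1 lies at 0.39. OSGIN1 and SRXN1 cross 0 among these fits, whereas KEAP1 and each of the other genes keep their sign.

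The groups did not overlap at 6 of the 9 genes, at KEAP1 and GCLC with shDROSHA higher and at NFE2L2, NQO1, HMOX1 and GCLM with shDROSHA lower. Over all probe sets that share was 47.8%, with 23.4% higher and 24.4% lower. The 95% intervals, which are not adjusted for the number of genes, lay within 1.5-fold in either direction at 8 of the 9 genes. KEAP1 was the exception, as its interval reached 0.61. In simulated data of this comparison, with 200 of 18603 probe sets changed, the trended fit recovered 0% of changes of 0.25 log2 units. It recovered 45% of changes of 0.5, and 89.2% of those with a signal between 8 and 12. In the arrays themselves 1192 probe sets were called, which makes the adjustment less strict. FTL, for example, passed at a difference of -0.18, so the simulated shares are no detection limit for these data.

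The genes whose values over the 4 arrays lay nearest to those of KEAP1, by Euclidean distance after centring each gene on its mean, were GREM1 (distance 0.0295), SMAGP (0.0326) and METTL1 (0.0353). SMAGP had a log2 difference of 0.37 and METTL1 of 0.41, and both passed (limma adjusted p 0.00986 and 0.0372). GREM1 had a difference of 0.41 without passing (limma adjusted p 0.128). These genes were chosen for values like those of KEAP1, so differences near that of KEAP1 follow from the choice. With 4 arrays such a likeness describes only these samples.

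KEAP1 and NFE2L2 were then set beside 15 measured regulators and partners of NRF2. Of these 0 were called in the trended limma fit, against 6.41% of all probe sets. In the constant limma fit 0 had an unadjusted p under 0.05, against 14.9% of all probe sets. Counts of 0 in 15 genes are no result about this list. CUL3, the scaffold of the ligase that KEAP1 serves, had log2 signals of 10.19 and 10.05 in shDROSHA and 9.85 and 10.03 in shNC. The groups were apart by little, and the log2 difference was 0.19 (SE 0.0725, limma adjusted p 0.158). Leaving out 1 array gave CUL3 differences from 0.10, without shNC replicate 1 (limma adjusted p 0.715), to 0.28, without shNC replicate 2 (0.0689). It was 0.12 without shDROSHA replicate 1 (limma adjusted p 0.404), and 0.26 without shDROSHA replicate 2, where it passed (limma adjusted p 0.0184). BACH1, a repressor that competes with NRF2 for the same elements, had a log2 difference of 0.16 (SE 0.0853, limma adjusted p 0.328). MAFG, a small MAF partner of NRF2, had a difference of -0.01, and 0.0052 with quantile normalization again. SQSTM1 (p62), which sequesters KEAP1, differed by -0.02, and by 0.01 with each array centred on its median.

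Beyond the 9 genes, the wider pathway was read in lists that were picked with earlier results of these data known. Of 91 measured genes in 7 lists 13 were called, 2 higher and 11 lower, while 78 did not pass. Over all probe sets 3.12% were called higher and 3.28% lower, but calls were more frequent among bright probe sets. Of the 91 genes 66 lay in the 2 brightest of the 5 bins of signal, where 8.92% and 15.6% of probe sets were called, and 10 of those 66 were called. From the dimmest bin up, 2 of 5, 0 of 8 and 1 of 12 genes were called in the other bins. In those bins 31, 72 and 175 of all probe sets were called. The lists were picked with earlier results known, so neither the share called nor its direction is a result about them. The lower calls also include GSTM and AKR1C paralogs, which may not be separate measurements. Leaving out 1 array gave 8 to 23 calls in these lists, with 8 when shNC replicate 1 was dropped and 23 when shDROSHA replicate 1 was. With arrays centred on their medians 2 were called higher and 8 lower, and FTL, AKR1C1 and GSTM3 did not pass. The constant limma fit called 0 of the 91, and 14 had an unadjusted p under 0.05, a share close to the 14.9% of all probe sets.

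Around the glutathione made by GCLC and GCLM, 0 of 26 genes were called higher and 5 lower, with a median log2 difference of -0.04. By sign alone 9 were higher and 17 lower. Over all probe sets 3.12% were called higher and 3.28% lower, and 15.6% were called either way in the brightest bin. Counts of single lists, here and below, are no result about those lists. SLC7A11, the cystine carrier that supplies glutathione synthesis and a known NRF2 target, had log2 signals of 9.71 and 9.65 in shDROSHA and 10.11 and 9.95 in shNC. It fell by 0.35 (SE 0.0689, limma adjusted p 0.00702), and by 0.27 without shNC replicate 1, where it did not pass (limma adjusted p 0.109). GLRX, glutaredoxin, fell by 0.50 (SE 0.0507, limma adjusted p 6.26e-05). The glutathione transferases GSTM4 and GSTM2 fell by 0.66 and 0.62 (limma adjusted p 0.000239 and 0.00328), and GSTM2 did not pass without shNC replicate 1 (limma adjusted p 0.0561). GSTM3, named after its value was seen, fell by 0.24 (limma adjusted p 0.0359). Of the 4 fits without 1 array it passed in that without shDROSHA replicate 1 (limma adjusted p 0.00933) and not in the others (0.118 to 0.163), at differences of -0.27 to -0.20. The GSTM genes are close paralogs whose probes may not tell them apart, which was not tested.

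Beside TXNRD1 and SRXN1, 0 of 14 thioredoxin and peroxiredoxin genes were called higher and 2 lower, against 3.12% and 3.28% of all probe sets. By sign alone 6 were higher and 8 lower. PRDX2, a peroxiredoxin that SRXN1 can restore, had log2 signals of 9.78 and 9.79 in shDROSHA and 10.22 and 10.23 in shNC, and fell by 0.44 (SE 0.0584, limma adjusted p 0.000477). SESN3, a sestrin, fell by 0.97 from a dim signal, at 4.98 and 4.96 (log2) in shDROSHA against 5.63 and 6.25 in shNC. Without shNC replicate 2 the SESN3 difference was -0.66, and it did not pass (limma adjusted p 0.129).

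With HMOX1 in haem and iron handling, 1 of 9 genes rose and 2 fell. BLVRA, biliverdin reductase A, which acts on the product of HMOX1, fell by 0.34 (SE 0.07, limma adjusted p 0.00917). Without shNC replicate 2 the BLVRA difference was -0.30, and it did not pass (limma adjusted p 0.0843). FTL, the ferritin light chain that stores iron, fell by 0.18 (SE 0.0421, limma adjusted p 0.0231), and did not pass without either shNC array (limma adjusted p 0.1 and 0.146). TFRC, the transferrin receptor that takes up iron, had log2 signals of 11.07 and 11.11 in shDROSHA and 10.47 and 10.46 in shNC. It rose by 0.63 (SE 0.0496, limma adjusted p 7.22e-06).

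Among NQO1's relatives in quinone and carbonyl reduction, 0 of 12 genes rose and 2 fell, with a median log2 difference of -0.12. The aldo-keto reductases AKR1C1 and AKR1C2 lay in the dimmest of the 5 bins of signal, and AKR1C2 did not pass (limma adjusted p 0.39). AKR1C3 and AKR1C1, aldo-keto reductases that NRF2 induces, fell by 1.15 and 0.61 (limma adjusted p 0.000136 and 0.0461). Their sequences are closely alike, and AKR1C1 passed in 0 of the 4 fits without 1 array (limma adjusted p 0.0519 to 0.239). Of 10 genes of NADPH supply, on which TXNRD1 and NQO1 draw, 1 rose: MTHFD2, a mitochondrial folate enzyme, by 0.29 (SE 0.0639, limma adjusted p 0.0143). It did not pass without shDROSHA replicate 2 or without shNC replicate 2 (limma adjusted p 0.063 and 0.0785). Of 5 dismutases, catalase and other antioxidant genes 0 were called in the trended limma fit, against 6.41% of all probe sets. In the constant limma fit 0 of these 5 had an unadjusted p under 0.05, against 14.9% of all probe sets.

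**Figure D3:**
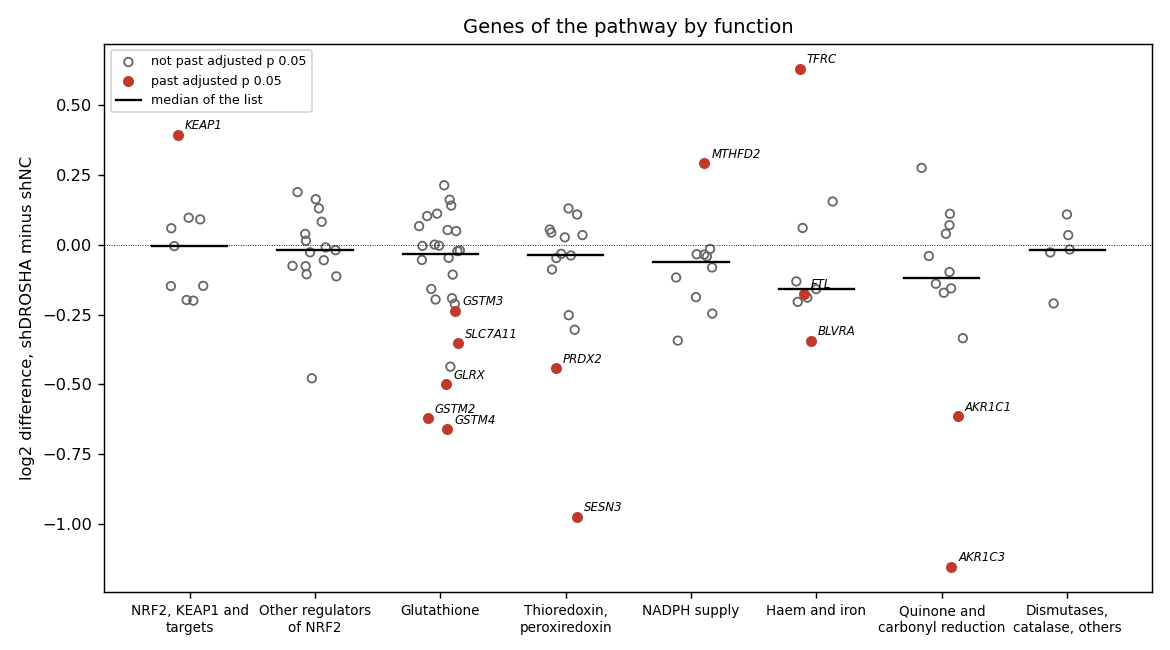
Log2 difference of shDROSHA minus shNC (y axis) of each measured gene, by list (x axis), with the 9 genes first; filled red points passed adjusted p 0.05 and are named, and black lines are list medians. KEAP1 is the filled point of the first column, and 11 of the 13 filled points in the others lie below 0. The lists were picked with earlier results of these data known.

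**Figure D4:**
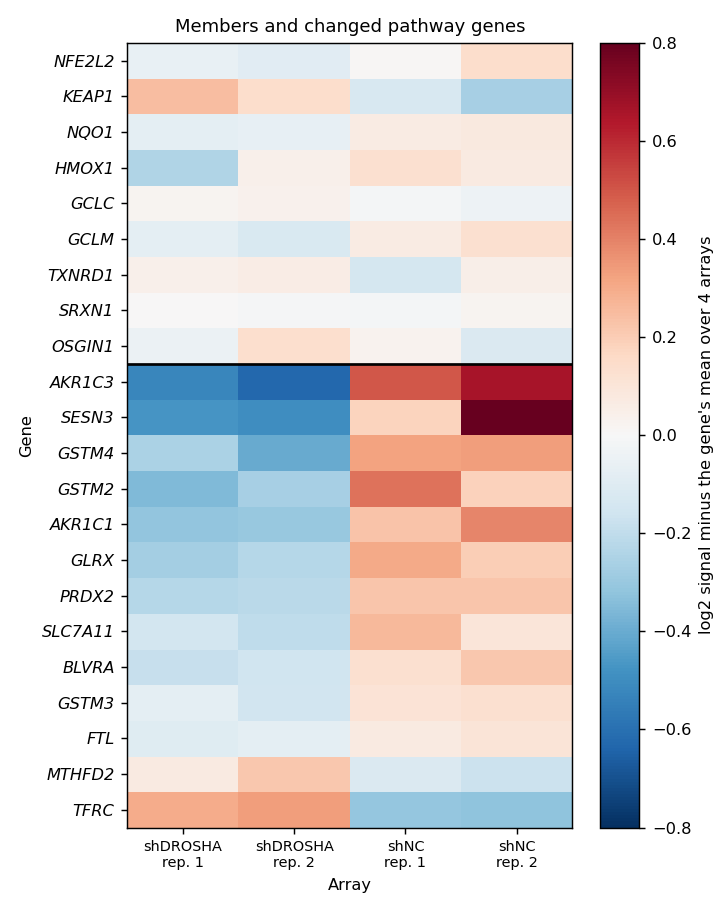
Log2 signal of each array (columns) minus the gene's mean over the 4 arrays (colour), for the 9 genes above the black line and the 13 called pathway genes below it. AKR1C3 and SESN3 show the deepest colours, and most of the 9 genes above the line are pale, KEAP1 being the exception at a difference of 0.39.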

How the data were processed

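Values of 4 arrays were used. Per the submitters' processing notes, the authors deposited log2 signals made with RMA (background correction, quantile normalization, a summary per probe set). Version, filters and build: not given in the sources used here. RMA makes the arrays' distributions nearly alike (medians 7.21 to 7.25), so a shift of most transcripts together is hidden. Groups and replicate numbers come from the titles. Platform symbols were updated through Entrez identifiers to RefSeq for 15886 of 18603 probe sets, and 2717 had none.

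The fit was limma (version 3.58.1, R 4.3.3; lmFit, then eBayes with a trend) on all 4 arrays and all probe sets, tested on simulated data. Within groups the SD was 0.213 for the dimmest probe sets (1 of 5 bins) and 0.067 for the brightest. The trend was chosen, and the members and lists were picked, with earlier results of these data known. Named were DROSHA, the 9 members, up to 4 called genes per list by smallest p, CUL3, BACH1, MAFG, SQSTM1 and SLC7A11, and the 3 genes nearest the member that differed most. Of 100 listed pathway genes 9 had no named probe set and were not analysed here. The number of arrays limits the precision. Alternatives covered the prior, filters, normalization, threshold, probe sets per gene, a replicate block and leaving out each array.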

Additional observations from a re-analysis of the deposited data

How the results depend on the processing

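The count of 1192 probe sets became 1 with 1 constant prior variance and 1824 at adjusted p 0.10, and ranged from 535 to 1949 without 1 array: leaving out shNC replicate 1 gave 535, shNC replicate 2 748 and shDROSHA replicate 1 1949. The 1 called gene of 9 became 0 with the constant prior, and 2 (KEAP1 and NQO1) without probe sets below the median signal, without those below the lower quartile, with quantile normalization again, at adjusted p 0.10 and with the replicate number as a block, where 1391 probe sets and 16 pathway genes were called. It ranged from 0 to 1 without 1 array. The 13 calls in the other pathway lists became 0 with the constant prior (14 of 91 at an unadjusted p under 0.05 in limma, against 14.9% of all probe sets) and 8 to 23 without 1 array. Centring arrays on their medians made 62.5% of all calls higher, against 48.7%. Deviations of same-numbered arrays correlated at -0.022, so the numbers were not taken as pairs. The members' median, -0.01, moved by less than 0.0444 under each alternative. That value is the pooled SD, between replicate arrays, of each array's median deviation from the gene means. It rests on 2 arrays per group. Over the 9 genes and 116 values under alternatives, 103 kept direction and side of the threshold. The difference turned sign for SRXN1 with quantile normalization (0.0196) and centring (0.0277), for MAFG with both (0.0052 and 0.023) and for SQSTM1 with centring (0.0131). Without 1 array SRXN1 ranged from -0.0218 to 0.0111, OSGIN1 from -0.0022 to 0.183, MAFG from -0.0588 to 0.0386 and SQSTM1 from -0.0535 to 0.0135. The looser threshold acts by construction; the cause of the other differences was not tested. No gene of the 9 had a further probe set to compare.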
